A study of Arabidopsis thaliana with 6 samples.

Results

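The genes described here are LBD16 (AT2G42430), LBD17 (AT2G42440), LBD18 (AT2G45420), LBD29 (AT3G58190) and LBD33 (AT5G06080), 5 of the 27655 genes in the deposited table. They were chosen by name as the LBD factors linked to lateral roots, with their transcript levels in both genotypes of this study already known. Their difference between the genotypes is therefore given as a description, with no test. All 5 had a row in the table, each as a single transcript, and all 5 passed the filter of a mean of 1 TPM over the samples.

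RNA was sequenced from root tips of Arabidopsis thaliana, 3 samples labelled WT and 3 labelled sos2-2, a mutant of the SOS2 protein kinase that takes part in sodium export. Seedlings were 6 days old and all 6 samples came from plants held in liquid medium with 100 mM NaCl for 12 hours, so no sample shows the genes without salt. What the sos2-2 allele changes in the gene is not stated in the labels. The series' design text sets gl1 beside sos2-2, and no source used here says which of the samples carried gl1. Separate cultures are not stated for the 3 samples within each genotype, so p-values rest only on the spread among these libraries, and that spread may be technical. Values are TPM, a transcript level corrected for length and scaled to a fixed total per sample, and sequencing depth is unknown.

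LBD proteins are plant-specific transcription factors named for the LATERAL ORGAN BOUNDARIES domain, which begins with a cysteine-rich DNA-binding motif. In Arabidopsis, auxin releases the response factors ARF7 and ARF19 from Aux/IAA repressors such as IAA14, and these factors activate LBD16 and LBD29 directly in the pericycle, the cell layer from which lateral roots start. LBD16 is needed for the first asymmetric division of founder cells, LBD18 acts in initiation and emergence, LBD33 forms a dimer with LBD18 that activates the cell cycle gene E2FA, and LBD16, LBD17, LBD18 and LBD29 can each drive callus formation when overexpressed.

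The coding bases of the cysteine motif are shown because they are the feature that defines the family and let the members be compared. They were read from RefSeq's TAIR10.1 assembly in the direction of each gene, and capitals mark the 4 cysteine codons.
LBD16, chr2:17663713-17663757, plus strand: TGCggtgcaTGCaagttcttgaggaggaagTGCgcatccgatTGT
LBD17, chr2:17669685-17669729, minus strand: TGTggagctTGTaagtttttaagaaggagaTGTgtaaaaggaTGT
LBD18, chr2:18718712-18718756, plus strand: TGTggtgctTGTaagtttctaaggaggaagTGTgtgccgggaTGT
LBD29, chr3:21549411-21549455, minus strand: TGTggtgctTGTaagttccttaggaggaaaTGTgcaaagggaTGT
LBD33, chr5:1831362-1831406, minus strand: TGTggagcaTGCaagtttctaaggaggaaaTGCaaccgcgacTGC

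The motif occurred once in each member, and between pairs of members 29 to 38 of its 45 bases were identical. LBD18 and LBD29 were the closest pair in these bases, with 38 in common. Over the whole conceptual translation the closest pair was LBD17 and LBD29, with 67.5% identity over 212 aligned residues, and the other 9 pairs lay between 43.5% and 52.3%. LBD33 was the shortest protein at 177 residues, and LBD18 the longest at 262. Each gene had 2 exons, and the motif lay in the first. The single intron measured 98 bases in LBD33, 116 in LBD29, 128 in LBD17, 748 in LBD16 and 1056 in LBD18.

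LBD16 (chromosome 2, 17663353 to 17665337) and LBD17 (17668701 to 17669836) are neighbours that face each other tail to tail, with 3363 bases between them. LBD18 lies on the same chromosome (18718348 to 18720729), LBD29 on chromosome 3 (21548484 to 21549572) and LBD33 on chromosome 5 (1830671 to 1831467).

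The promoters of LBD17 and LBD29 are shown because this pair shared stretches that the other members lacked. The window runs from 250 bases before to 50 bases after the annotated start, in the direction of each gene. Capitals mark runs of 10 or more bases that both windows hold. The last block of capitals joins a run of 10 and a run of 12 bases, which overlap in LBD17 and abut in LBD29.
LBD17, chr2:17669787-17670086, minus strand: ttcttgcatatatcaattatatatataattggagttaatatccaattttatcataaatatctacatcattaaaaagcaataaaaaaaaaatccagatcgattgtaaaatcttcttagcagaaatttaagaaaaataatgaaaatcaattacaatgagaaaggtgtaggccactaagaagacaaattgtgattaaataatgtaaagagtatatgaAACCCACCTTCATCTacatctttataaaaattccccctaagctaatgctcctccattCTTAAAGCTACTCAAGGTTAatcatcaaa
LBD29, chr3:21549523-21549822, minus strand: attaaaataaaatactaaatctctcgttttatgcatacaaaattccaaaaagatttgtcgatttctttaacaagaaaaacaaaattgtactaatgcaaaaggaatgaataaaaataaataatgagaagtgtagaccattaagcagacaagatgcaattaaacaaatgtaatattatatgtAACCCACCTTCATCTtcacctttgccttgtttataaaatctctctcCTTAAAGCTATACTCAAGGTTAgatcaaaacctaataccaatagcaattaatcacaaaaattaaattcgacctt

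The longest run shared by LBD17 and LBD29 had 15 bases, and the next had 12. Each of these 2 runs was held by 2 of the 27443 protein-coding promoters of this length, those of LBD17 and LBD29. The remaining run, of 10 bases, was held by 12 promoters. Among the other pairs the longest shared run was 13 bases, between LBD16 and LBD33, and consisted of adenines ending in a cytosine that 379 promoters hold. All 5 windows were poor in G and C, at 25.3% to 29.3%.

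Auxin response factors bind letters that begin with TGTC. In the 300-base windows TGTCTC, searched on both strands, occurred only in LBD33 among the 5 members, against 14.2% of all promoters, and TGTCGG and TGTCCC occurred in none of the 5, against 5.12% and 4.89%. In the 1000 bases before the start, a window chosen later, every member held TGTCTC at least once, against 39.6% of all genes, and again none held TGTCGG (14.6%) or TGTCCC (16.7%). The matches are shown with 10 bases on either side, in the direction of the gene and with capitals for the match, where GAGACA is the match on the opposite strand.
LBD16, chr2:17662669-17662694, 674 bases before the start: cattattgatTGTCTCcttagaatcc
LBD17, chr2:17670472-17670506, 660 and 651 bases before the start: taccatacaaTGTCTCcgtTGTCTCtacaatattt
LBD18, chr2:18717375-18717400, 963 bases before the start: acgcgtggagGAGACAttgaggaagc
LBD29, chr3:21550158-21550183, 601 bases before the start: gttgtagtttGAGACAgaataatgat
LBD33, chr5:1831743-1831768, 291 bases before the start: attaggagaaGAGACActagctagac
LBD33, chr5:1831466-1831491, 14 bases before the start: caacgtgattTGTCTCaatctaacaa

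A match is a description of the letters and does not show that a factor binds there.

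Markers of the cell types in a root tip were read first. The 7 markers of root cap and meristem, tissues that define a root tip, were at 2.17 TPM or more in WT and summed to 46.3 to 54.1 TPM in WT samples and 56.5 to 64.6 in sos2-2 samples, with 2 called higher and 1 lower. The 4 stele and pericycle markers, the tissue where lateral roots start, summed to 76.1 to 101 and 77.9 to 102 TPM, ranges that overlap, with 2 of the 4 called lower and AHP6 at 0 in sos2-2 replicate 2. The 5 markers of endodermis with a Casparian strip summed to 627 to 796 TPM in WT and to 128, 308 and 248 in sos2-2 replicates 1 to 3, with 4 called lower and 1 higher. One of the 4, ESB1 (adjusted p = 0.0226), had overlapping groups and lost its call without WT replicate 1 or 3 or sos2-2 replicate 1 or 3. The 4 root hair markers summed to 1288 to 1695 and 296 to 385 TPM, with 3 lower and 1 higher. The 4 green tissue markers summed to 30.3 to 42.1 and 12.0 to 22.7 TPM, and the 3 that were tested were called lower. Of these, RBCS1A (adjusted p = 0.0455) had overlapping groups and lost its call with no filter, with TMM-type factors, and without any WT replicate or sos2-2 replicate 3. Summed levels of endodermis, root hair and green tissue markers were thus lower in every sos2-2 sample than in any WT sample. Those of root cap and meristem were higher by a narrow margin, 54.1 TPM at most in WT and 56.5 at least in sos2-2. In WT, CASP1 made up most of the endodermis sum and PRP3 most of the root hair sum, while MYB36 and RHD6 were the markers called higher. Sums of stele and pericycle markers overlapped, although AHP6 and LHW (28.2 ± 2.9 and 20.0 ± 0.8 TPM) were called lower. PHO1 alone made up most of that sum in each sample, at 55.5 ± 8.1 TPM in WT and 63.8 ± 12.4 in sos2-2. PHO1 and SKOR were not called (limma, adjusted p = 0.362 and 0.220), and AHP6 passed the filter only through its WT samples. What part any of these differences had in the LBD levels was not tested. Fewer cells of a type and less RNA per cell cannot be told apart in bulk samples. From 18812 to 19141 genes per sample reached 1 TPM, and the share of the most abundant gene was 0.549% to 5.55%.

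The levels of the 5 genes differed widely in how far the genotypes lay apart. LBD29 stood 58.6-fold higher in sos2-2 and LBD18 7.40-fold, the neighbours LBD16 and LBD17 stood 2.38-fold and 2.42-fold higher, and LBD33 overlapped between the genotypes. In 4 of the 5 genes all sos2-2 samples lay above all WT samples. Over all 19527 tested genes 35.0% had groups that did not overlap with sos2-2 higher, and since the members were chosen with these values known, nothing is read from their count.

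LBD29, a direct target of ARF7 and ARF19, stood at 2.38, 2.78 and 2.77 TPM in WT replicates 1 to 3 and at 260.1, 93.1 and 112 in sos2-2 replicates 1 to 3. The lowest sos2-2 sample was far above the highest WT sample, and the sos2-2 samples were spread 2.79-fold among themselves. The means were 2.64 ± 0.23 and 155 ± 92 TPM (SD, n = 3 each), a difference of 5.27 on the log2(TPM + 1) scale. Without sos2-2 replicate 1, the highest sample, the ratio of means was 38.7.

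LBD18, which in Arabidopsis acts in initiation and in emergence, stood at 2.04, 1.28 and 1.93 TPM in WT and at 19.6, 6.99 and 12.3 in sos2-2. The groups were apart, and replicate 1 was again the highest sos2-2 sample and replicate 2 the lowest. The means were 1.75 ± 0.41 and 13 ± 6.3 TPM, a log2 difference of 2.25.

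LBD16, the founder cell factor, was the member with the tightest replicates. It stood at 17.8, 18.4 and 17.4 TPM in WT and at 38.9, 45.9 and 42.8 in sos2-2. Its means were 17.9 ± 0.5 and 42.5 ± 3.6 TPM, a log2 difference of 1.20, and leaving out any 1 sample gave ratios from 2.29 to 2.48.

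LBD17, its neighbour, stood at 5.77, 3.50 and 5.36 TPM in WT and at 11.7, 13.8 and 9.99 in sos2-2, also without overlap. The means were 4.88 ± 1.21 and 11.8 ± 1.9 TPM, a log2 difference of 1.14. The level of LBD16 was 3.09 to 5.27 times that of LBD17 in WT samples and 3.32 to 4.29 times in sos2-2 samples, ranges that overlap.

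LBD33, the dimer partner of LBD18, stood at 2.61, 2.35 and 3.85 TPM in WT and at 2.37, 7.84 and 4.55 in sos2-2. The lowest sos2-2 sample lay within the WT range. The means were 2.94 ± 0.80 and 4.92 ± 2.76 TPM, with a ratio of 1.67 that ran from 1.18 without sos2-2 replicate 2 to 2.11 without sos2-2 replicate 1.

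The sos2-2 samples did not rank alike across the members. Replicate 1 was highest for LBD29 and LBD18, and replicate 2 was highest for LBD16, LBD17 and LBD33. Over all tested genes the sos2-2 library nearest to the WT mean was replicate 2 (root mean square difference 1.15 in log2 units), and replicate 1 was the farthest (1.43). Replicate 1 also had the lowest summed level of the Casparian strip markers, and the part of this in the LBD levels was not tested.

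**Figure D1:**
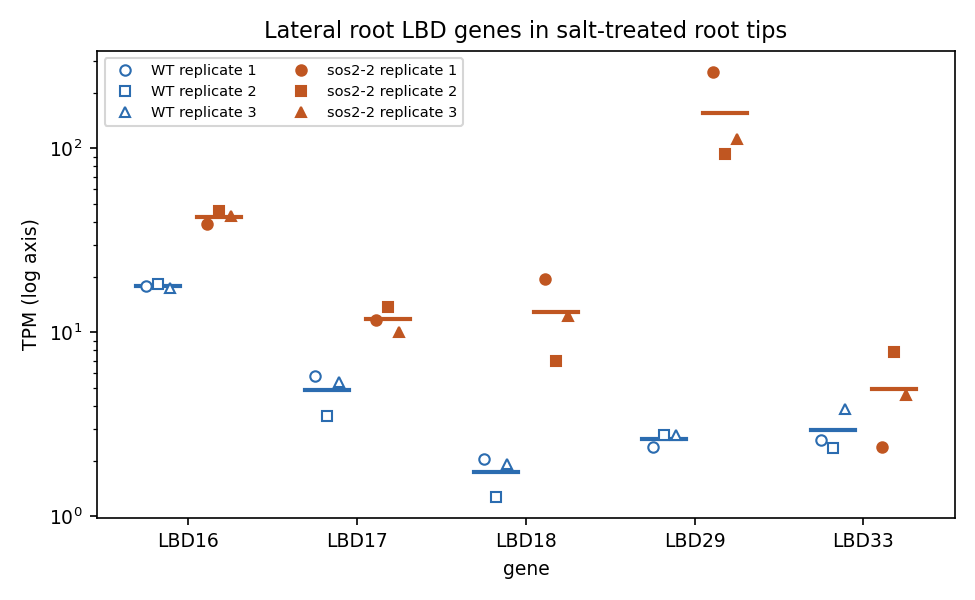
Level of each of the 5 LBD genes in TPM on a log axis, with 1 symbol per sample, open for WT and filled for sos2-2, and a bar at the mean of 3 samples. LBD29 goes from under 3 TPM in every WT sample to 93.1 TPM or more in every sos2-2 sample, while the symbols of LBD33 overlap.

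In WT the order of the mean levels was LBD16, LBD17, LBD33, LBD29, LBD18. LBD16 lay above all others in every sample, LBD17 overlapped with LBD33 and LBD33 with LBD29, while LBD29 lay just above LBD18 without overlap. In sos2-2 the order was LBD29, LBD16, LBD18, LBD17, LBD33, in which only LBD18 and LBD17 overlapped as neighbours. LBD18 also overlapped with LBD33, and in sos2-2 replicate 2 it was the lowest member, at 6.99 TPM against 7.84 for LBD33. Among the 42 family loci in the table, LBD29 ranked 14 in WT and 3 in sos2-2, LBD18 ranked 21 and 10, and LBD16 ranked 8 and 9.

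The 5 genes together summed to 28.3 to 31.3 TPM in WT samples and to 168, 181 and 333 TPM in sos2-2 samples. LBD16 made up 55.5% to 65.0% of that sum in WT and 11.7% to 27.4% in sos2-2. LBD29 made up 7.77% to 9.80% in WT and 55.5% to 78.2% in sos2-2. The most abundant lateral root LBD transcript was thus LBD16 in all 3 WT samples and LBD29 in all 3 sos2-2 samples. Of the summed level of the whole family the 5 genes held 6.32% to 7.60% in WT and 16.3% to 27.7% in sos2-2.

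**Figure D2:**
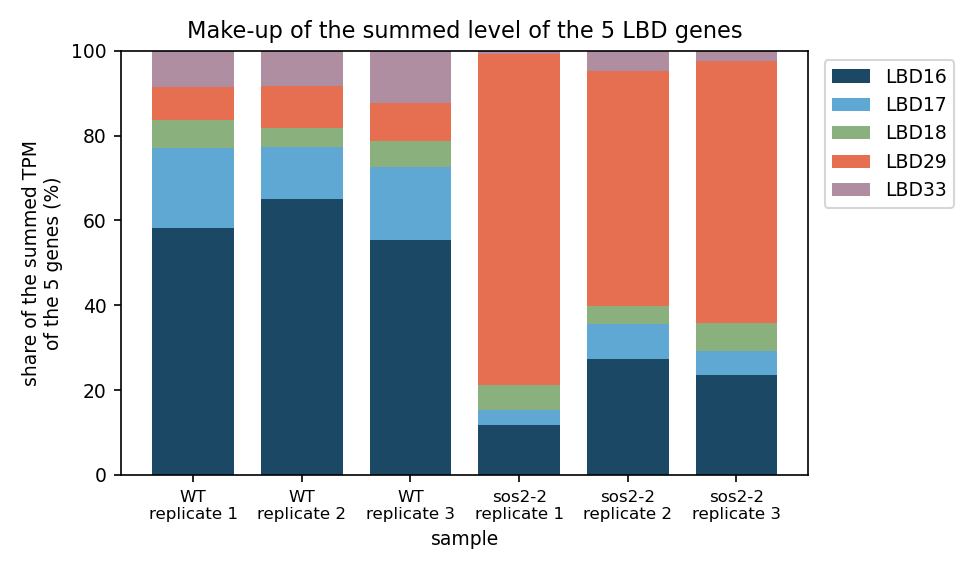
Share of each gene in the summed TPM of the 5 LBD genes, in percent, with 1 bar per sample. LBD16 takes 55.5% or more of each WT bar, and LBD29 takes 55.5% or more of each sos2-2 bar.

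Of 22 listed auxin signalling genes that act upstream of these LBD factors, or with them, 12 rose, 2 fell and 8 were not called (limma, adjusted p under 0.05), with a median log2 fold change of 0.59. All 22 were tested, and the number called higher ran from 11 to 14 over the alternatives. Over all 19527 tested genes 31.3% were called higher and 34.1% lower, with a median of -0.05. The list was drawn up with earlier results of these data known.

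The response factors that activate LBD16 and LBD29 were unlike each other. ARF19 stood at 10.3, 8.53 and 9.79 TPM in WT and at 56.7, 44.9 and 56.4 in sos2-2, and rose 5.52-fold (log2 fold change 2.34, SE 0.14, adjusted p = 1.64e-05). ARF7 stood at 17.5, 15.5 and 16.3 TPM in WT and at 14.3, 17.2 and 17.8 in sos2-2, and was not called (adjusted p = 0.976). WT samples held more ARF7 than ARF19, and sos2-2 samples more ARF19 than ARF7. ARF6 and ARF8, activating factors known from flower development and adventitious rooting, were the 2 that fell, ARF8 from 10.2 ± 2.7 to 2.11 ± 0.12 TPM (adjusted p = 0.000202) and ARF6 from 16.4 ± 3.1 to 7.71 ± 1.80 (adjusted p = 0.00339).

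MYB77, an R2R3 factor that binds ARF7 in Arabidopsis, had the largest rise of the list. It stood at 6.55, 9.67 and 8.48 TPM in WT and at 422, 239 and 396 in sos2-2, a log2 fold change of 5.23 with an SE of 0.24 (adjusted p = 7.66e-06). The difference of LBD29 on the same scale was 5.27. WOX12, which with WOX11 activates LBD16 and LBD29 when roots form on cut leaves, rose from 7.33 ± 1.22 to 90.2 ± 45.7 TPM (adjusted p = 0.000120). WOX11 itself was also called higher, from 4.41 ± 0.40 to 21.6 ± 6.5 TPM (adjusted p = 0.000128), a gene named after its values were seen.

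Among Aux/IAA repressors, IAA19, an early auxin response gene, rose 8.93-fold from 11.7 ± 1.3 TPM (adjusted p = 0.000195). IAA14, whose stabilised form blocks lateral root initiation, rose 1.49-fold, from 43.2 ± 1.6 to 64.4 ± 2.2 TPM (adjusted p = 0.00182). IAA28, another repressor of lateral roots, was at 92.4 ± 4.0 and 123 ± 23 TPM (adjusted p = 0.0466), a call that was lost without any 1 of 5 of the samples, with adjusted p from 0.0541 to 0.128, with no filter (0.0599) and with quantile normalization (0.107). The auxin receptor TIR1 rose 2.39-fold, from 44.1 ± 2.3 to 105 ± 15 TPM (adjusted p = 0.000194). GATA23, which marks founder cell identity, was low in both genotypes, at 1.86, 1.08 and 2.42 TPM in WT and 0.770, 1.38 and 0.780 in sos2-2, and was not called (adjusted p = 0.112; 0.0448 without WT replicate 2).

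Genes reported as targets of the LBD factors, or acting in emergence and division, went both ways. Of 16 listed genes, all tested, 4 rose, 7 fell and 5 were not called, with a median log2 fold change of -0.30. The shares over all tested genes were 31.3% higher and 34.1% lower, and nothing is read from this split. E2FA, EXPA14 and EXPA17 are among the genes known as targets of LBD18 in Arabidopsis, and their values follow. E2FA, the target of the LBD18 and LBD33 dimer, stood at 8.78, 4.55 and 7.65 TPM in WT and at 1.86, 2.34 and 2.1 in sos2-2, and fell 3.33-fold (adjusted p = 0.00159). EXPA14, a wall-loosening expansin activated by LBD18, fell from 35.3 ± 3.9 to 18.4 ± 2.7 TPM (adjusted p = 0.00103). EXPA17, a second expansin downstream of LBD18, stood at 143, 142 and 158 TPM in WT and at 15.1, 125 and 51.7 in sos2-2. Its groups did not overlap but it missed the threshold (adjusted p = 0.0554), and it was called lower without sos2-2 replicate 2 (4.42-fold, adjusted p = 0.00452). LAX3, the auxin influx carrier that LBD29 regulates in cells over the primordium, averaged 40.0 ± 6.9 TPM in WT and 39.9 ± 9.7 in sos2-2 (adjusted p = 0.953, not called).

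PUCHI, an AP2-type factor that acts with LBD16 and LBD18 in primordium development, stood at 4.42, 4.04 and 4.52 TPM in WT and at 34.3, 27.0 and 27.2 in sos2-2 (6.81-fold, adjusted p = 1.27e-05). IDA, the peptide that triggers cell separation over emerging primordia, stood at 0.0585, 0.952 and 0.652 TPM in WT and at 77.1, 30.6 and 43.5 in sos2-2. Its ratio of means was 90.9, or 142 without WT replicate 2 (adjusted p = 3.96e-05). IDA passed the filter only through its sos2-2 samples. XTH23, a wall-remodelling enzyme of the same emergence pathway, rose 25.5-fold from 43.6 ± 6.9 TPM (adjusted p = 1.16e-05). The mitotic cyclin CYCB1;1 fell, from 13.7 ± 4.1 to 4.05 ± 1.5 TPM (adjusted p = 0.00186). KRP2, an inhibitor that holds back pericycle division, fell from 21.3 ± 2.0 to 7.09 ± 2.77 TPM (adjusted p = 0.000886). HSL2, a receptor of IDA, fell from 4.98 ± 0.91 to 1.49 ± 0.42 TPM (adjusted p = 0.000866), while the level of its partner HAE, 0.968 ± 0.200 in WT and 1.23 ± 0.16 in sos2-2, missed the threshold (adjusted p = 0.370); both were named after their values were seen.

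**Figure D3:**
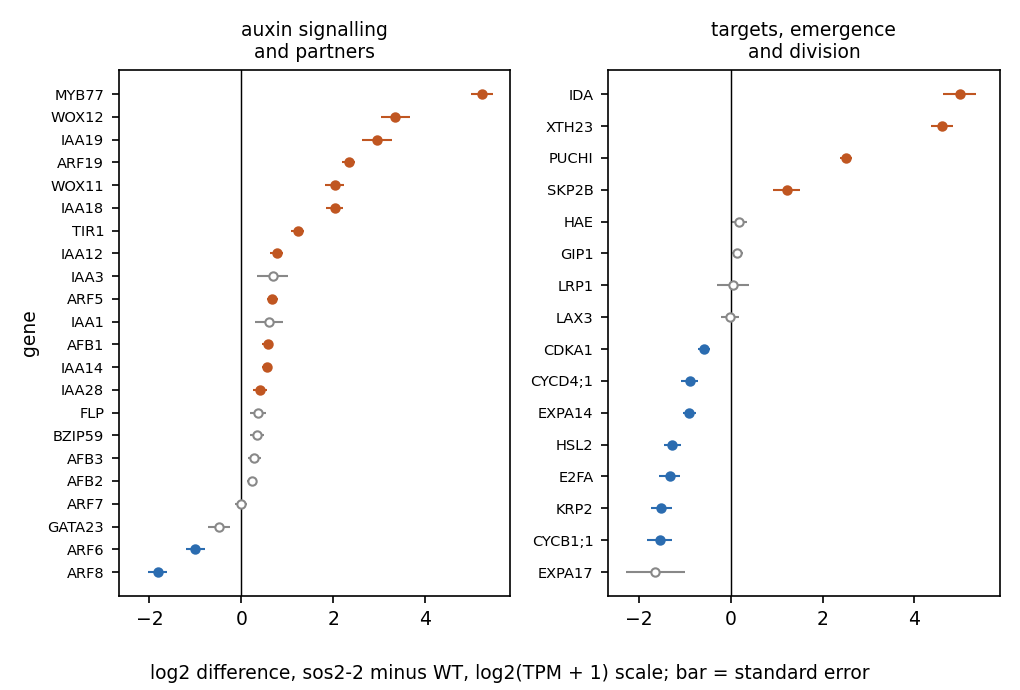
Difference between the genotypes (sos2-2 minus WT, log2(TPM + 1) scale) with its standard error for each tested gene of the lists of auxin signalling and of targets, emergence and division, 3 samples per genotype. Filled symbols were called by limma at an adjusted p under 0.05, right of 0 when higher and left when lower, and open symbols were not called. MYB77, IDA and XTH23 lie farthest to the right, and E2FA and EXPA14 lie left of 0.

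Of 15 listed genes of primordium patterning and auxin transport, 14 were tested, of which 5 rose, 1 fell and 8 were not called. Their median log2 fold change was 0.38. Among all tested genes 31.3% were called higher and 34.1% lower. The count of rises was 3 without WT replicate 3 or without sos2-2 replicate 3, and 9 without sos2-2 replicate 1. PLT3, which with PLT5 and PLT7 is required for primordia to form properly, rose from 17.8 ± 2.6 to 109 ± 10 TPM (adjusted p = 1.27e-05). PLT5 was at 4.23 ± 0.67 and 6.76 ± 1.02 TPM (adjusted p = 0.0194; not called without WT replicate 3 or sos2-2 replicate 3), and PLT7 was below the filter at 0.591 ± 0.180 and 0.543 ± 0.294 TPM. The auxin efflux carrier PIN3 rose 3.32-fold, from 31.8 ± 4.5 to 106 ± 14 TPM (adjusted p = 7.33e-05). ACR4, a receptor kinase that limits founder cell divisions, fell from 1.53 ± 0.28 to 0.648 ± 0.103 TPM (adjusted p = 0.0155; 0.0530 without sos2-2 replicate 3, and below the filter without WT replicate 1 or 3).

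The remaining LBD family was divided in direction. Of 37 other loci, 8 were listed at 0 in all samples and 18 were tested, of which 9 rose, 6 fell and 3 were not called. Their median log2 fold change was 0.37. For comparison, 31.3% of all tested genes were called higher and 34.1% lower, and nothing is read from the split. LBD39, a repressor of anthocyanin and nitrogen genes together with LBD37 and LBD38, rose from 39.5 ± 2.7 to 152 ± 12 TPM (adjusted p = 1.97e-05). LBD15 rose 3.82-fold (adjusted p = 7.40e-05), and LBD11 rose from 0.283 ± 0.099 to 3.62 ± 1.67 TPM (adjusted p = 0.00112). LBD11 passed the filter only through its sos2-2 samples. LBD41, a hypoxia-induced gene, stood at 12.1, 45.7 and 44.0 TPM in WT and at 1.69, 2.39 and 2.44 in sos2-2 (adjusted p = 0.000714), with WT replicate 1 apart from the other WT samples. LBD25 fell 2.65-fold (adjusted p = 0.000576), and LBD14 stood at 1.84, 2.06 and 3.04 TPM in WT and at 0.0994, 0 and 0.537 in sos2-2 (adjusted p = 0.00117). LBD14 passed the filter only through its WT samples, and was below it without WT replicate 3.

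**Figure D4:**
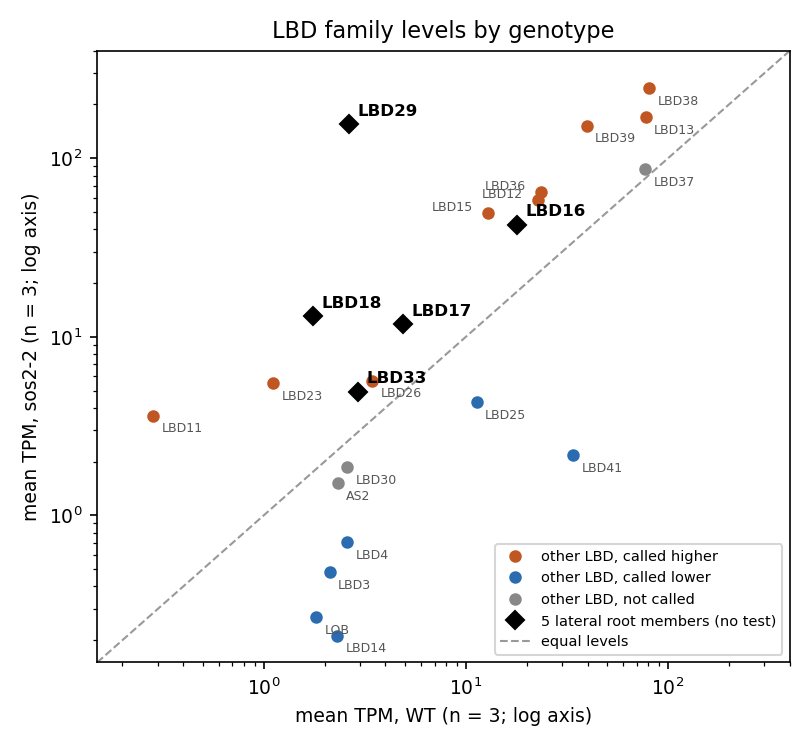
Mean TPM in sos2-2 against mean TPM in WT on log axes for the 18 other LBD family genes tested (circles, coloured by the limma call) and the 5 lateral root members (diamonds, not tested), 3 samples per genotype. LBD29 is the point farthest above the line of equal levels, and LBD41 lies far below it.

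The nearest 2 protein-coding genes on each side gave 16 loci other than members, of which 10 were tested, 3 rose, 3 fell and 4 were not called, shares near the 31.3% and 34.1% over all tested genes. BS14A, a gene for a vesicle transport protein 2 genes away from LBD29, fell from 52.4 ± 5.4 to 11.7 ± 0.6 TPM (adjusted p = 1.53e-05). AT3G58180, which lies between them, was not called (adjusted p = 0.0938). On the other side AT3G58200, which adjoins LBD29, fell from 2.32 ± 0.24 to 0.458 ± 0.126 TPM (adjusted p = 0.000594). AT3G58200 passed the filter only through its WT samples. AT5G06060, 2 genes away from LBD33, fell 2.44-fold (adjusted p = 0.000757). LBD19, which adjoins LBD18, was below the filter, at 0.110, 0.0560 and 0.102 TPM in WT and 1.18, 0.941 and 0.620 in sos2-2. The 3 that rose did so by 0.63 to 0.83 on the log2 scale. They were AT2G42450, which adjoins LBD17, VOZ2, 2 genes away from LBD16, and DHDPS2, 2 genes away from LBD18. These 3 genes and AT3G58180 were named after their values were seen.

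The genes most like each member were found as those with the smallest root mean square distance of centred log2(TPM + 1) over the 6 samples. For LBD29 the nearest were AT2G18190 (0.134), AT2G03770 (0.146) and AT2G27505 (0.187), each at 0.564 TPM or less in every WT sample and highest in sos2-2 replicate 1. For LBD18 they were AT4G17250 (0.090), AT1G66930 (0.129) and AT3G11380 (0.131), and for LBD16 TOM7-2 (0.035), RBL14 (0.043) and AT5G24460 (0.051). LBD17 was most like AT3G57940 (0.067), RNR2A (0.075) and AT5G60990 (0.099), and LBD33 most like SEOR1 (0.149), CRF3 (0.156) and AT1G68360 (0.164). No member was among the 3 nearest genes of another. The closest pair of members was LBD16 and LBD17, at a distance of 0.23, and LBD29 and LBD18 lay 1.53 apart. Many other genes lay closer, as LBD17 ranked 1164 by distance from LBD16 and LBD16 ranked 361 by distance from LBD17. LBD18 ranked 804 by distance from LBD29, and LBD29 ranked 14067 by distance from LBD18. The distance counts the size of a change as well as its pattern over the samples.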

How the data were processed

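Root tip RNA was measured in 6 samples, 3 per genotype, grouped by their titles. The authors deposited TPM per transcript for 48359 transcripts, and each sample sums to 1000000, from which the unit was read. The submitters' processing notes list sleuth 0.30.0, kallisto 0.46.2 and, as build, TAIR10, with no role or order. No source used here gives the annotation release, filters or strand. Depth cannot be had from TPM, so no counting interval is given. Columns of other samples numbered 0.

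Transcripts were summed per locus to 27655 genes, of which 27445 had a RefSeq TAIR10.1 entry. Genotypes were compared with limma 3.58.1 (R 4.3.3) on log2(TPM + 1), with trended, robust variances, for 19527 genes (mean over the samples of 1 TPM or more). P-values were adjusted by the Benjamini-Hochberg method over all of them, and an adjusted p under 0.05 was called. Fold changes on this scale understate those of low genes, and ratios are of mean TPM. Values after ± are SDs of 3 samples.

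The members and lists were chosen with earlier results of these data known. Named genes are the members, a fixed set of pathway genes, and the 3 called genes of each list with the largest change in each direction; of the flanking genes, those called with a log2 change of at least 1. The values of 1 gene that this rule names are not reported here. In the lists, the reference calls E2FA E2F3 (synonym ATE2FA), and the locus listed as BZIP59 (AT2G31370) PosF21. Sequences were read by locus from RefSeq's TAIR10.1. Protein identity was computed with Biopython 1.88 from translated coding bases, in which the cysteine motif of the LOB domain was searched by its spacing of 4 cysteines. The fit was also run on simulated data with independent normal noise and far fewer changed genes than were called here. No result rests on that run. TMM-type factors (trimmed means of log ratios) were computed on TPM. Alternatives changed the filter, pseudocount and scaling, added the replicate number, or left out each sample in turn.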

Additional observations from a re-analysis of the deposited data

How the results depend on the processing

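With the filter raised to a mean of 5 TPM, 8 other LBD family genes were called, 2 of them lower, and 0 primordium patterning genes were lower; fewer genes were tested there. Leaving out 1 sample at a time gave 3 to 10 calls among primordium patterning genes, 3 to 9 higher and 0 to 1 lower, 12 to 16 in the LBD family, and 10658 to 12898 over all genes. With a pseudocount of 5 the log2 differences were 1.05 for LBD16, 0.77 for LBD17, 1.35 for LBD18 and 4.24 for LBD29, smaller because the pseudocount is larger, and quantile normalization gave 1.1 for LBD16. The mean log2 level of every member stayed higher in sos2-2 under the alternatives run, LBD33 by 0.15 to 0.85 although its groups overlapped. These alternatives reuse the values known when the members were chosen, so nothing is read from the constant direction. ARF7 and LAX3, neither called, changed sign, to 0.06 and 0.05 with TMM-type factors and over -0.06 to 0.09 and -0.20 to 0.08 with 1 sample left out; the cause was not tested. TMM-type factors and quantile normalization gave medians over all genes of 0.01 and -0.08. Of 34 named genes tested, 27 kept direction and call under every alternative that tested them. EXPA17 was also called lower with quantile normalization (adjusted p = 0.0483). Same-numbered samples deviated together weakly (correlations 0.18, 0.05 and 0.06), not every sample correlated best with its own number, and the numbers were not taken as pairs. With the replicate block 12547 genes were called, 15 upstream, 12 target, 5 primordium, 15 family and 6 flanking genes among them, and EXPA17 was called (adjusted p = 0.0277). Unknown depth limits what can be said of genes near 1 TPM, such as LBD18 in WT.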
